A study of Mus musculus with 7 samples.

Results

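Day 10-only 5hmC regions without a gene symbol were chosen by 2 conditions on the deposited region lists: the row of the day 10 list of 5-hydroxymethylcytosine (5hmC) carried no gene symbol, and the region shared not even 1 bp with any region of the day 5 5hmC list. Of the 4164 regions of the day 10 list, 1428 met both conditions (34.3%), out of 8949 regions in the 4 lists of the series. Neither condition alone was rare in the list, since 82.9% of all day 10 regions overlapped no day 5 region and 42.1% carried no symbol. Among regions without a symbol 81.4% were absent from the day 5 list, against 84.1% of regions with one. Because the lists were used to choose the regions, their absence at day 5 is a description and was not tested.

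The DNA came from ATDC5, an established mouse teratoma-derived line that behaves as a chondroprogenitor and makes cartilage-like matrix when its medium is supplemented with insulin, transferrin and selenite. Per the labels, 2 samples at day 5 and 2 at day 10 were enriched for 5hmC by tagging the mark with a sugar, 1 sample at day 0 and 1 at day 10 were enriched for 5-methylcytosine (5mC) with a methyl-CpG binding complex, and 1 day 0 sample was input DNA, which was not analysed here. All were of the same cell line, and no label names a knockdown or another treatment for them. The authors merged the samples of a day into 1 list, which holds regions of at least 10-fold enrichment for 5hmC and at least 3-fold for 5mC with no score, read count or p-value, so that depth is unknown and no value per sample can be given. The study's text names other days than the labels do, and days are given below as labelled.

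5hmC is made from 5mC by the TET enzymes, which oxidise the methyl group mostly where a cytosine is followed by a guanine (CpG). It can be an intermediate on the way to unmethylated cytosine or persist as a mark of its own, and outside promoters it is known to gather at distal enhancers and along transcribed genes. Enhancers are short stretches bound by transcription factors, among which AP-1 (dimers of FOS and JUN), nuclear factor I (NF1), RUNX, SOX and TEAD proteins are known to act in skeletal and mesenchymal cells. SOX9 is the factor without which cartilage does not form, and its gene is known to be regulated from enhancers spread over a long gene-poor stretch upstream of it.

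Only 8 of the 1428 regions held both the AP-1 string TGACTCA and the NF1 string TGCCAAG, on either strand, within their own borders. The 4 of these with most strings, and then the shortest distance to a protein-coding start, are shown first because both strings were found more often in the regions than beside them. Sequences are the plus strand of GRCm38, written 5′ to 3′. Capitals mark the AP-1 and NF1 strings and, in the first sequence, a SOX string (ACAAAGG or ACAATGG) and the TEAD string ACATTCC, each on whichever strand it was found.
Sox9 upstream region, chr11:112773380-112773572: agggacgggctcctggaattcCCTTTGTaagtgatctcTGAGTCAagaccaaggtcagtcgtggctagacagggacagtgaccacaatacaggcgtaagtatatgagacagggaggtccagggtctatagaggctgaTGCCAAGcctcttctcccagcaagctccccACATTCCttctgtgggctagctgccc
Dact2 region, chr17:14212883-14213153: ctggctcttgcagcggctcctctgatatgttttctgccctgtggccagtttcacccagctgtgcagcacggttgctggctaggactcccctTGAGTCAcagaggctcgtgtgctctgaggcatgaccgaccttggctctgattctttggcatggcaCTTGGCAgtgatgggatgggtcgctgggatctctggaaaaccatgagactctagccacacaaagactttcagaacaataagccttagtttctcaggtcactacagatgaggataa
Dspp region, chr5:104158348-104158547: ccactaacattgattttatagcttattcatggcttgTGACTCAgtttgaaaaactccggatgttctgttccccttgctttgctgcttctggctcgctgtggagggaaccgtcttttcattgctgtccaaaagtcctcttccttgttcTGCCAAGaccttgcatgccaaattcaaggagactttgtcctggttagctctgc
Kcnma1 region, chr14:24036104-24036348: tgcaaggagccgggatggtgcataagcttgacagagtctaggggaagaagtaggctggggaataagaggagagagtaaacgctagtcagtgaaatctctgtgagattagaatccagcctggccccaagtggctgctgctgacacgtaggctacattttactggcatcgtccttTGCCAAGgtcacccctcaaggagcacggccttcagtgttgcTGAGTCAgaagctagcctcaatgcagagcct
The first lay 8.65 kb upstream of Sox9, in an annotated long noncoding RNA gene, and held 1 AP-1, 1 NF1, 1 SOX and 1 TEAD string in 193 bp. The second lay 8.58 kb from the start of Dact2, which encodes a modulator of WNT and TGF-beta signalling, and the third lay 12.2 kb from Dspp, the gene of a tooth and bone matrix protein. The fourth was 21.6 kb from the start of Kcnma1, a potassium channel gene. All 4 held 3 to 5 CpG, and every 43-base string in their 200 bp windows occurred once in the genome (43 bases being the length of a read after trimming).

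Other regions are shown for their CpG content, with each CpG in capitals. They comprise the 3 with most CpG per 100 bp and the regions closest to Col2a1, which encodes the main collagen of cartilage, and to Acan, which encodes its main proteoglycan.
CpG-rich region 1, chr3:153123790-153123850: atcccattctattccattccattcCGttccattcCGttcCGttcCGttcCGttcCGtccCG
CpG-rich region 2, chr3:5860615-5860773: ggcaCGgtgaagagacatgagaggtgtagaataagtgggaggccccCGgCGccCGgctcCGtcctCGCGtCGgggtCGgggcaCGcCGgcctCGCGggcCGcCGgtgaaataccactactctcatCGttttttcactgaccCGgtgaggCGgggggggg
CpG-rich region 3, chr10:67836373-67836503: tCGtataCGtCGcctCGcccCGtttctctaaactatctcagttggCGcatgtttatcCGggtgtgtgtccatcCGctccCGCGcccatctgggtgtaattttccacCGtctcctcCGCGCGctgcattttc
Col2a1 region, chr15:98027726-98027874: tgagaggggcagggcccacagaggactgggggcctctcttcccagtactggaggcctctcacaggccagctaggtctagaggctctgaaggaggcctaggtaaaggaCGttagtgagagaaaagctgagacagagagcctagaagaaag
Acan region, chr7:78972262-78972350: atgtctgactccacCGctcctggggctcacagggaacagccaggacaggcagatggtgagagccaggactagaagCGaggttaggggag
The first CpG-rich region held 7 CpG in 61 bp (11.5 per 100 bp), and 90.2% of its bases were repeat-marked in the reference. The second held 18 CpG in 159 bp and the third 14 in 131 bp. The Col2a1 region held 1 CpG in 149 bp (0.671 per 100 bp) and the Acan region 2 in 89 bp (2.25 per 100 bp). Neither held any of the 5 factor strings.

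The regions were short. Their median width was 142 bp (quartiles 130 and 179 bp, range 52 to 993 bp), and together they covered 229 kb. Day 10-only regions with a symbol had a median of 146 bp, and day 10 regions without a symbol that did overlap a day 5 region had one of 165 bp. Regions found at day 5 only and without a symbol were far wider, with a median of 771 bp and none under 362 bp. The 2 lists of 5hmC differ in width as a whole, so features were compared in windows of a fixed 200 bp at each midpoint. Such a window reaches past the edges of most day 10-only regions without a symbol, while it lies whole within every day 5-only one. Of the 3 widest day 10-only regions without a symbol, 2 were mitochondrial (993 and 542 bp), both in exons of protein-coding genes of that genome.

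**Figure D1:**
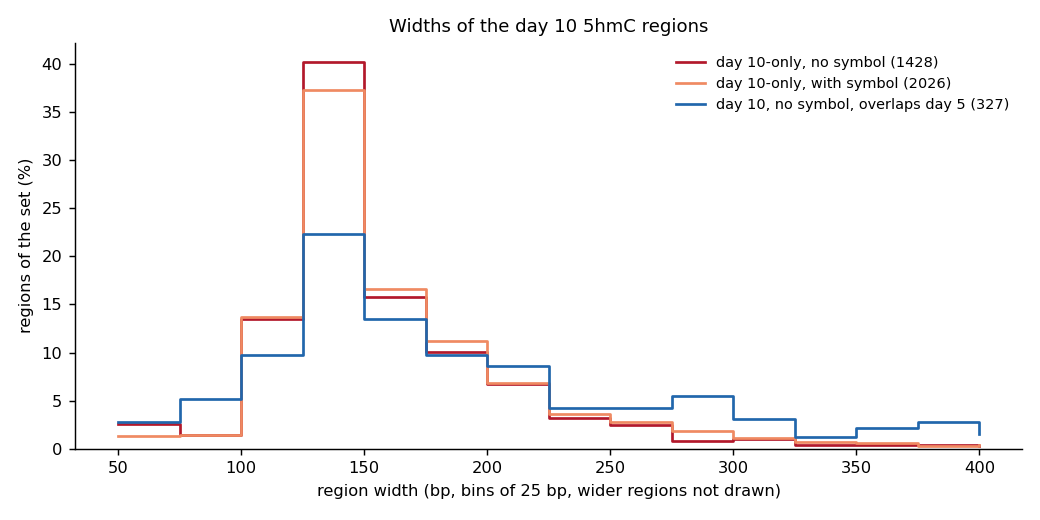
Share of regions (vertical axis, percent of each set) by region width (horizontal axis, bins of 25 bp) for 3 sets of the day 10 5hmC list. In the day 10-only set without a symbol 40.2% of regions were 125 to 149 bp wide, and it follows the set with a symbol closely.

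At the border of the rule, the region nearest to a day 5 region lay 86 bp from it, at chr6:145998938-145999054. The next were the Dact2 region shown above, 101 bp away, and chr3:109298829-109298956, 166 bp away. Just outside the rule, chr6:125540870-125540992 was left out for an overlap of 56 bp, chr7:130362862-130362921 for 60 bp and chr8:101146114-101146178 for 65 bp. Few regions were close calls, as 12 of the 1428 lay within 1000 bp of a day 5 region and 75 within 10000 bp, and the median distance was 213 kb.

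A missing symbol did not mean that a region lay outside genes. Against the GENCODE M21 annotation of GRCm38, 286 of the 1428 regions (20.0%, 95% Wilson interval 18.03 to 22.2) lay inside an annotated gene, 108 of them (7.56% of all) inside a protein-coding one. There were 96 intronic regions, 12 touching an exon of a protein-coding gene and 160 in long noncoding RNA genes. The remaining 1142 regions lay outside genes, 8 of them within 5000 bp upstream of a protein-coding start and 1134 elsewhere. Of day 10-only regions with a symbol 88.9% (87.5 to 90.2) were inside a gene, which follows from what a symbol is.

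The protein-coding genes that held regions numbered 88, and 20 of them held 2 or more. The most were 4 in Gm20388, a model that spans several genes on chromosome 8, and 3 each in Creb5, a gene of the ATF and CREB factor family, and in Lmntd1, all 3 named after their counts were seen. The distance to the nearest protein-coding start had a median of 68.6 kb (quartiles 28.0 and 156 kb). It was 53.3 kb for day 5-only regions without a symbol. For day 10 regions without a symbol that overlapped a day 5 region it was 42.3 kb. Day 10-only regions with a symbol had 34.8 kb, and their nearness follows in part from what a symbol is. Within 5000 bp of such a start lay 31 regions (2.17%, 1.53 to 3.06), and 59 (4.13%) had none within 500 kb. The share within 5000 bp was 1.58% for day 5-only regions without a symbol. It was 14.7% for day 10 regions without a symbol that overlapped day 5, and 16.1% for day 10-only regions with one.

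**Figure D2:**
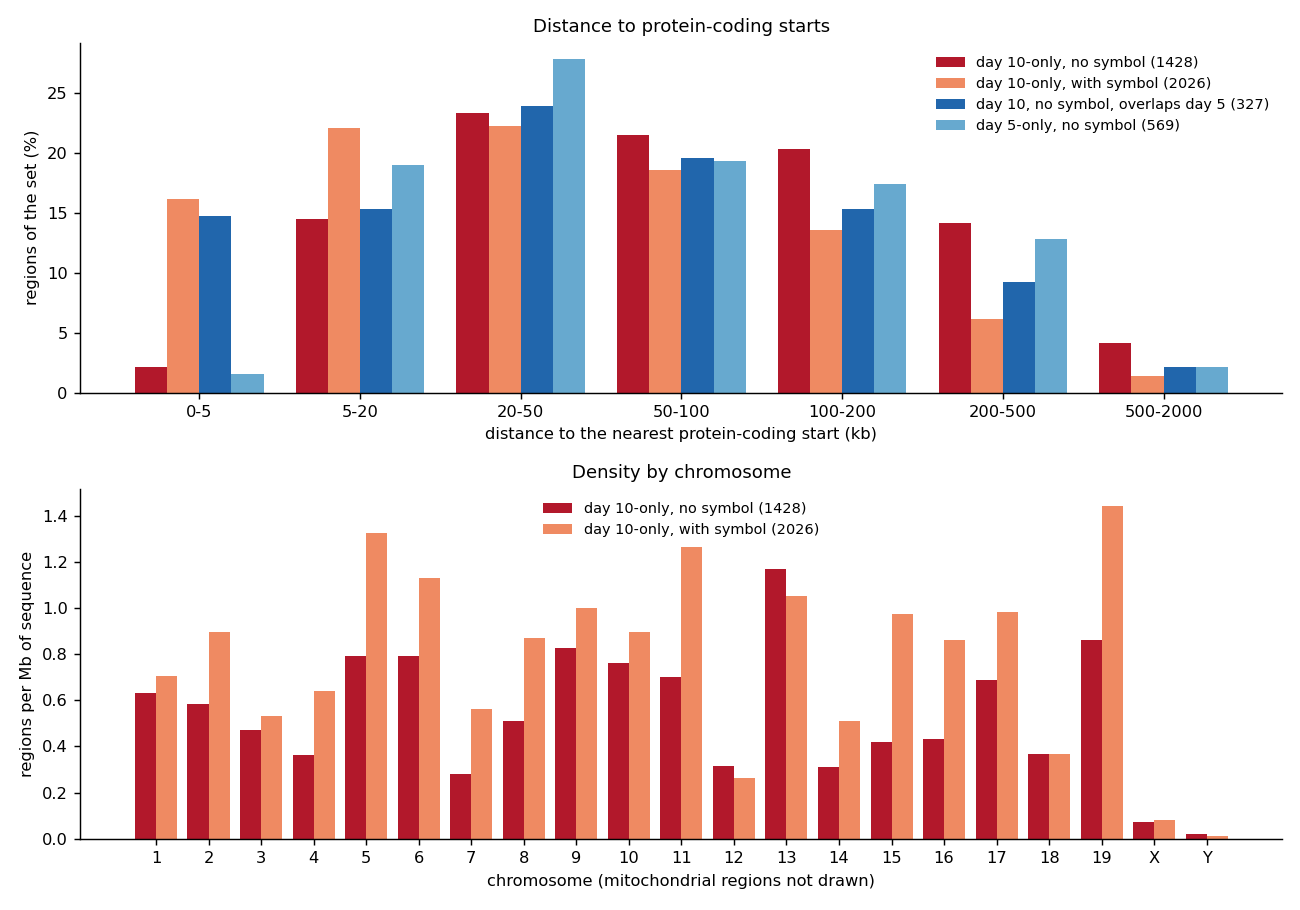
Top, share of each set (vertical axis, percent) by distance to the nearest protein-coding transcription start (horizontal axis, kb, unequal bins). Bottom, regions per Mb of sequence (vertical axis) on each nuclear chromosome (horizontal axis) for the day 10-only sets without and with a symbol, where chromosome 13 stands highest for the set without a symbol and X and Y lowest in both.

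The regions were unevenly spread over chromosomes. Chromosome 13 carried 137 of the 1428 (9.59%, 1.17 per Mb of sequence), the highest density of any nuclear chromosome, and chromosome 7 carried 40 (0.282 per Mb), the lowest of the autosomes, which together had 0.589 per Mb. Day 5-only regions without a symbol were also densest on chromosome 13, at 0.461 per Mb. Day 10 regions without a symbol that overlapped day 5 had 0.179 per Mb there. Of the nuclear chromosomes they were densest on chromosome 9, at 0.396 per Mb. Day 10-only regions with a symbol had 1.05 per Mb on chromosome 13 and were densest on chromosome 19, at 1.44 per Mb. The X chromosome carried 12 regions (0.0734 per Mb) and the Y chromosome 2, and the set with a symbol was as sparse there, with 0.0795 per Mb on X. The mitochondrial genome held 3.

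Some regions had close neighbours, and dense runs were few. In all, 96 regions (6.72%) had another within 1000 bp and 211 (14.8%) within 10000 bp. The densest 100000 bp held 8 regions on chromosome 9, between 3002462 and 3035101, inside the noncoding gene model Gm26870. Protein-coding models lie in the same stretch. Of these, Gm10718, Gm10719 and Gm17535 each held 1 of the regions and are among the 88 protein-coding genes counted above. These 8 lay almost wholly in repeat-marked sequence (89.2% to 100% of each), and 11.4% to 42.4% of the 43-base strings of their windows occurred once in the genome, with up to 82 copies. The next densest stretches were of another kind, with 6 regions on chromosome 5 (118355873 to 118419002), 89.8 kb from the nearest protein-coding gene, 2410131K14Rik, and 5 on chromosome 13 (60242976 to 60318909), 65.6 kb from Gas1, which encodes a hedgehog co-receptor. In both, every 43-base string of every window occurred once.

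Sox9 was the protein-coding gene with most of these regions around it. Within 1000 kb of its start (chromosome 11, position 112782224, plus strand) lay 15 regions, while the median over 21924 protein-coding genes was 1 and 10732 of them (49.0%) had none. The next was Med13l, a Mediator subunit gene, with 14. Genes were sparse there, with 7 other protein-coding starts within 1000 kb of Sox9 against a median of 29 over all genes, and the part of this sparseness in the number of regions that carry no symbol was not tested. Med13l also had 7 other starts, and 1896 genes (8.65%) had no more than that. Counting all day 10 5hmC regions, with a symbol or without, Sox9 had 21 within 1000 kb, and 25 genes had more, up to 41. Since neighbouring starts share regions, these counts are given without a test.

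Of the 15 regions, 14 were upstream of Sox9 and 1 downstream. The farthest upstream were 943, 902, 794 and 759 kb from the start. A middle group lay at 675, 660, 550, 529 and 496 kb. A closer group comprised 3 regions at 323, 319 and 308 kb and the widest of all, 379 bp, at 236 kb. The region 8.65 kb upstream and the one 52.0 kb downstream were the only ones within 100 kb. Within the same 2 Mb, day 10-only regions with a symbol numbered 1, day 10 regions without a symbol that overlapped day 5 numbered 3, and day 5-only regions without a symbol 0.

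The Sox9 regions were 109 to 379 bp wide (median 147 bp), 11 of the 15 held 3 or more CpG and 1 held none. At least 1 of the 5 factor strings was present in 10. NF1 and SOX strings were each found in 4, AP-1 in 2, and the region 8.65 kb upstream, shown above, was the only one with more than 1 kind of string. In all, 2 lay in long noncoding RNA genes and the rest outside genes. Over all 1428 regions, 32.6% of 200 bp windows held at least 1 of the 5 strings. The NF1 string was in 8.82%, the SOX strings in 6.93% and AP-1 in 7.70% of these windows. At least 3 CpG were in 66.7% of the windows and in 53.3% of the regions themselves. The 15 regions were chosen by place, and the difference from these shares was not tested.

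**Figure D3:**
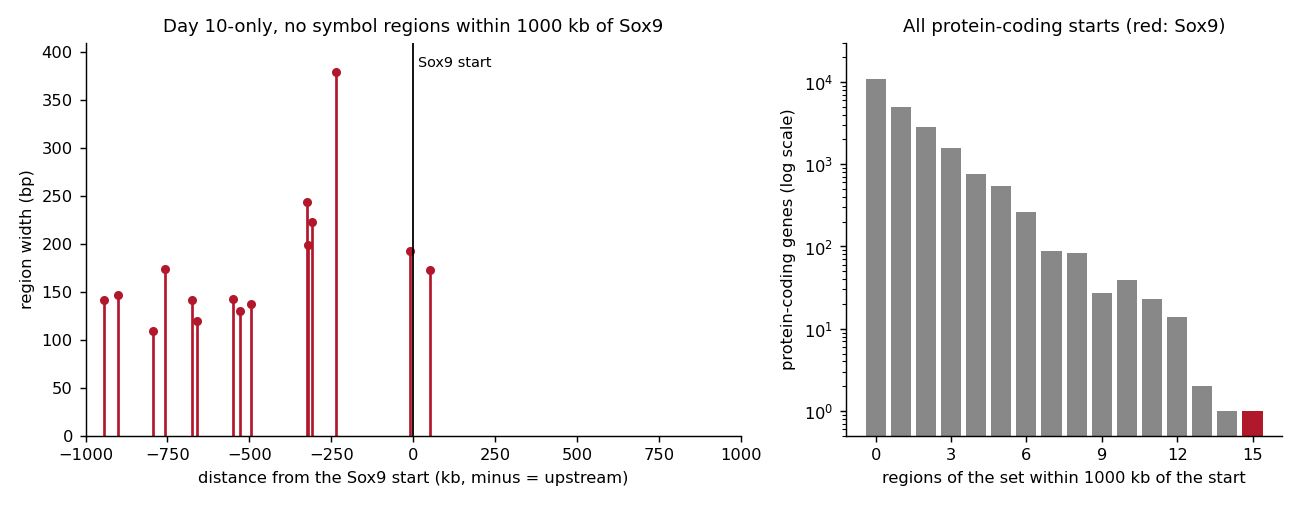
Left, width in bp (vertical axis) of each of the 15 day 10-only regions without a symbol within 1000 kb of Sox9, placed by distance from its transcription start (horizontal axis, kb, minus for upstream). Right, number of protein-coding genes (vertical axis, log scale) by how many such regions lie within 1000 kb of their start, with Sox9 alone at 15.

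Genes of chondrogenesis other than Sox9 were looked up by the same regions, counting a gene when a region lay within 100000 bp of its start. A region counted even when the start of another gene was nearer. Over all 21924 protein-coding genes this share was 7.56% (1658 genes). The lists are small, and their shares stand beside that background without a test.

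Among 24 chondrogenic transcription factors 3 had a region (12.5%), namely Sox9, Barx2 (at 93.0 kb) and Dlx5 (at 63.6 kb), both homeobox genes. The SOX9 partners Sox5 and Sox6 had none within 100 kb, the nearest regions lying 483 and 3853 kb from their starts, nor had Runx2, with the nearest at 277 kb. Distance to the start leaves out regions within long genes, since 2 of the regions lay in introns of Sox5 and 1 in an intron of Runx2. Among 24 genes of cartilage matrix 4 had a region (16.7%). Col2a1 had 1 at 23.0 kb upstream, Acan 1 at 81.1 kb upstream, Comp, which encodes a pentameric matrix glycoprotein, 1 at 74.6 kb downstream, and Fmod, the gene of the collagen-binding proteoglycan fibromodulin, 2, the nearer at 71.5 kb upstream.

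Growth plate signalling had the largest number, 7 of 40 genes (17.5%). In the BMP and TGF-beta pathways the ligand genes Bmp2 (53.0 kb upstream) and Bmp4 (40.0 kb upstream, with 2 regions) and the signal transducers Smad3 (60.3 kb) and Smad5 (55.8 kb) each had a region. The FGF receptor gene Fgfr2 had 1 at 38.4 kb, the hedgehog receptor gene Ptch1 had 2, the nearer at 79.3 kb, and the WNT ligand gene Wnt5a had 1 at 28.3 kb downstream. Of the factors whose strings were searched, none of the 4 NF1 genes had a region, and of 6 TEAD and coactivator genes Yap1 had one, at 12.6 kb. Among 16 genes of cytosine methylation and its removal 2 had a region, Dnmt3l at 95.3 kb and the DNA glycosylase gene Smug1 at 73.2 kb, and none of Tet1, Tet2 and Tet3 had one.

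CpG stood out most in the sequence at the midpoints. Of the 1428 windows of 200 bp, 952 (66.7%, 64.2 to 69.1) held 3 or more CpG, against 866 of 2855 windows (30.3%, 28.7 to 32.0) taken 2000 bp beyond either edge, an odds ratio of 4.59 (two-sided Fisher's exact test, adjusted p = 5.40e-113). Adjusted p-values here and below are Benjamini-Hochberg values over the 27 tests made. They treat regions as independent, which neighbours are not, and measure counting error over regions rather than the spread between cultures. The share over all 200 bp tiles of the genome was 21.7%. The mean was 3.50 CpG per window against 1.97 in the flanks, and only 61 windows (4.27%) had no CpG, against 20.7% of flanks.

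The CpG content peaked at the midpoint. In 50 bp bins it rose from 0.988 per 100 bp at the far left of the 2 kb around the regions to 1.91 in both central bins, while repeat-marked bases went from 24.9% to 12.3% just left of the midpoint. Windows that were at least 50% repeat-marked made up 6.09% (4.97 to 7.45) of the regions and 21.3% (19.9 to 22.9) of the flanks (odds ratio 0.239, adjusted p = 4.43e-41 by Fisher's exact test). In 1335 of the 1428 windows (93.5%) every 43-base string occurred once in the genome, against 81.7% of flanks. Reads of low mapping quality were discarded by the authors, and what that does to the repeat share was not tested.

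**Figure D4:**
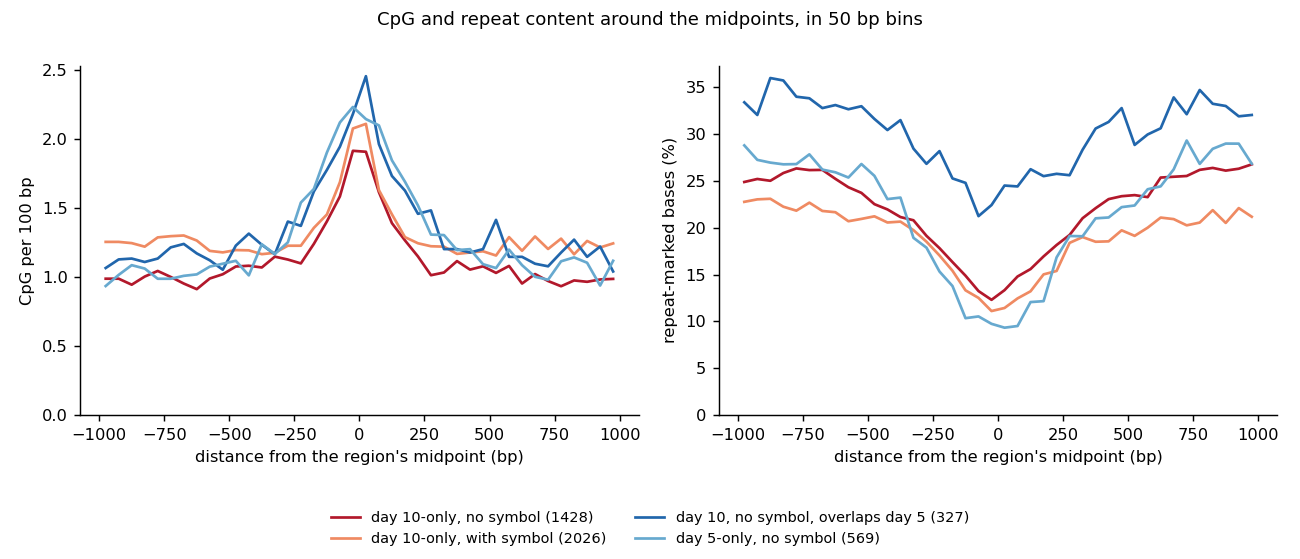
CpG per 100 bp (left, vertical axis) and repeat-marked bases in percent (right, vertical axis) against distance from the region midpoint in bp (horizontal axes), averaged in 50 bp bins for 4 sets. The day 10-only set without a symbol reaches 1.91 CpG per 100 bp at its centre and lies below the other sets in CpG at the midpoint.

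Of the factor strings, AP-1, NF1 and RUNX were more frequent in the regions than beside them. The NF1 string was in 126 windows (8.82%, 7.46 to 10.4) against 3.68% (3.05 to 4.43) of flanks, an odds ratio of 2.53 (Fisher's exact test, adjusted p = 6.34e-11), and in 3.04% of all tiles of the genome. The AP-1 string was in 110 windows (7.70%, 6.43 to 9.20) against 4.31% (3.62 to 5.12) of flanks, with an odds ratio of 1.85 (adjusted p = 3.14e-05, Fisher's exact test), and in 3.10% of tiles. The RUNX string AACCACA was in 126 windows (8.82%) against 5.39% (4.62 to 6.28) of flanks, with an odds ratio of 1.70 (adjusted p = 9.95e-05, Fisher's exact test), and in 4.67% of tiles.

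The SOX strings did not stand out. They were in 99 windows (6.93%, 5.73 to 8.37) and in 6.97% (6.09 to 7.96) of flanks, with an odds ratio of 0.994 (adjusted p = 1, Fisher's exact test) and in 7.58% of all tiles. The TEAD string, which was not tested, was in 4.76% (3.77 to 5.99) of windows, 2.87% of flanks and 2.74% of tiles. The cyclic AMP response string TGACGTCA was in 1 window (0.0700%) and 0.350% of flanks, and the NF1 palindrome, TTGGC and GCCAA set 5 bases apart, was in none, which allows a share of up to 0.210%. The shorter core of that palindrome, TGGC and GCCA set 5 bases apart, was searched for after the data were seen and not tested. It was in 15 windows (1.05%, 0.638 to 1.73), 0.455% of flanks and 0.287% of tiles. Runs of 10 or more CA or TG units were in 0.980% of windows and 2.45% of flanks. The windows also had more G and C (median 48.5%) than the flanks (44.5%), and the part of base composition in these string counts was not tested.

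Most regions had none of the 5 factor strings. At least 1 was in 465 windows (32.6%) against 21.5% of flanks, 2 or more kinds in 60 windows against 1.65%, and 3 or more in 3. The commonest pairs were AP-1 with SOX and RUNX with TEAD, each in 10 windows, followed by AP-1 with NF1 and NF1 with SOX, each in 9. Pairs were not counted in the flanks. Whether any pair was more frequent than its single strings would give was not tested.

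**Figure D5:**
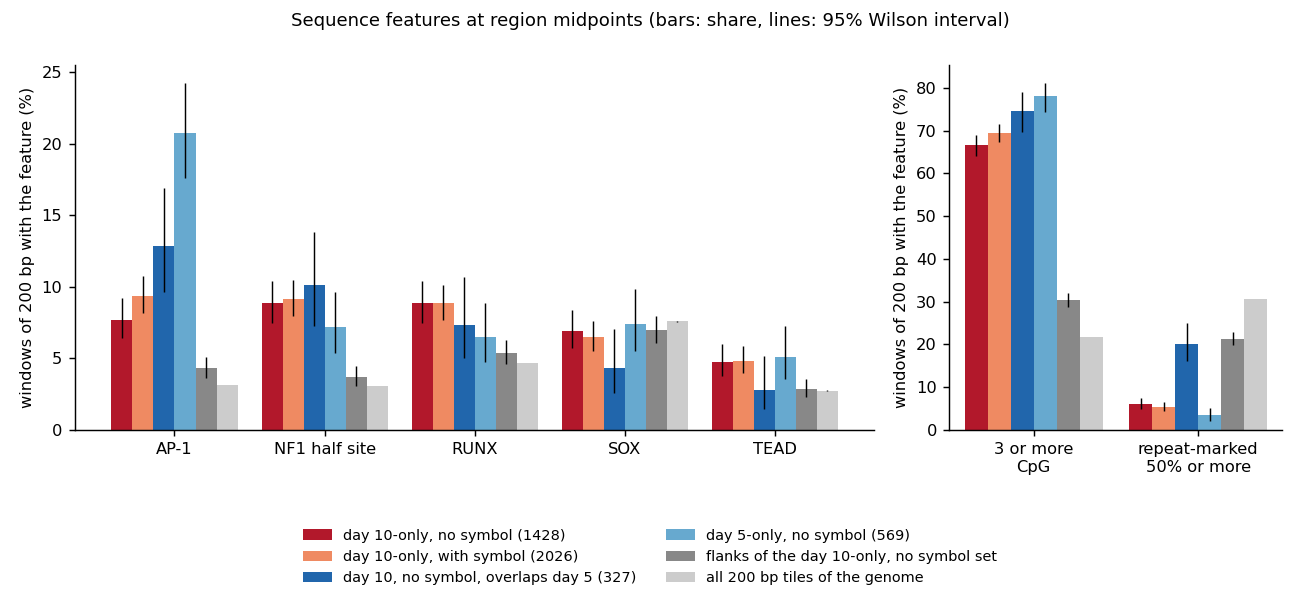
Share of 200 bp windows in percent (vertical axes) that held each factor string (left) or were rich in CpG or in repeat-marked bases (right), for the 4 sets, the flanks of the day 10-only set without a symbol, and all tiles of the genome. Lines are 95% Wilson intervals. The AP-1 share is highest in the day 5-only set, at 20.7%, and 7.70% in the day 10-only set without a symbol.

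In windows of 200 bp, day 10-only regions with and without a symbol did not differ detectably in the tested strings, CpG or repeats. In day 10-only regions with a symbol the AP-1 string was in 9.38% (8.18 to 10.7), the NF1 string in 9.13%, the RUNX string in 8.84% and the SOX strings in 6.47% of windows, 69.5% had 3 or more CpG and 5.38% were at least 50% repeat-marked. The odds ratios of the regions without a symbol against these lay between 0.806 for AP-1 and 1.14 for repeats. None passed the threshold of 0.05 (Fisher's exact test, adjusted p from 0.155 to 1), which does not show that the sets are alike. Over the regions themselves in place of the windows, 53.3% against 57.8% held 3 or more CpG (Fisher's exact test, adjusted p = 0.0153).

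The sets of the other day differed most in AP-1. Of 569 day 5-only regions without a symbol, 118 windows (20.7%, 17.6 to 24.3) held TGACTCA, so that the odds ratio of the day 10-only regions against them was 0.319 (Fisher's exact test, adjusted p = 2.78e-14). They also had more windows with 3 or more CpG, 78.0% (74.4 to 81.2), for an odds ratio of 0.563 (adjusted p = 2.09e-06, Fisher's exact test). Windows of most day 10-only regions reach past the region's edges, those of day 5-only regions do not, and the part of width was not tested. With 1 list per day, the day and the calling of its list cannot be told apart. NF1 (7.21%), RUNX (6.50%) and SOX (7.38%) strings in the day 5-only set gave odds ratios of 1.25, 1.39 and 0.935, none past the threshold (Fisher's exact test, adjusted p from 0.173 to 0.822). Repeat-rich windows were 3.34% there (odds ratio 1.88, adjusted p = 0.0327 by Fisher's exact test). That difference fell to an adjusted p of 0.112 over the autosomes alone and turned round, to an odds ratio of 0.557, among regions at least as wide as the median of their list.

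The regions were also compared with the 327 day 10 regions without a symbol that were already in the day 5 list. The AP-1 string was in 12.8% (9.64 to 16.9) of them (odds ratio of the day 10-only regions 0.566, Fisher's exact test with an adjusted p of 0.0119), and 74.6% had 3 or more CpG (odds ratio 0.680, adjusted p = 0.0139 by Fisher's exact test). With windows of 400 bp the AP-1 difference had an adjusted p of 0.0506, and with 1 region per 10000 bp the CpG difference had one of 0.118. Repeat-rich windows made up 20.2% (16.2 to 24.9) of these regions (odds ratio 0.257, adjusted p = 9.96e-13 by Fisher's exact test), but 109 of them (33.3%) lay within 1000 bp of another of the set, and with 1 region per 10000 bp the shares were 6% and 9.60% (adjusted p = 0.118). No difference in the NF1, RUNX or SOX strings passed the threshold (Fisher's exact test, adjusted p from 0.155 to 0.616).

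The same shares can be read by place. Among the 1142 regions outside annotated genes 8.06% (6.61 to 9.78) held the AP-1 string, 8.93% the NF1 string and 66.5% 3 or more CpG. Outside genes and more than 200 kb from a protein-coding start these shares were 9.18%, 9.18% and 67.1% of 207 regions. Within protein-coding genes 78.7% (70.1 to 85.4) of 108 regions had 3 or more CpG and 5.56% (2.57 to 11.6) held the AP-1 string. Regions at least as wide as the median held the NF1 string in 11.2% (9.09 to 13.7) and narrower ones in 6.39% (4.81 to 8.45), whereas 2.07% of the wider and 10.2% of the narrower were repeat-rich. These are descriptions within the set and were not tested.

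The regions were then compared with the 5mC lists, which cover little of the genome, 2509 kb at day 10 and 241 kb at day 0. Against the day 10 5mC list 5 of 1428 overlapped (0.350%, 0.150 to 0.817), and against the day 0 5mC list 0, which allows a share of up to 0.210%. Over the whole day 10 5hmC list the day 10 figure was 29 of 4164 (0.696%, 0.485 to 0.998). Day 10-only regions with a symbol overlapped day 10 5mC in 5 of 2026 cases and day 5-only regions without a symbol in 3 of 569, with no difference past the threshold (Fisher's exact test, adjusted p = 0.824 and 0.822). Of the regions already in the day 5 list 11 of 327 did (3.36%, 1.89 to 5.92; odds ratio 0.101, adjusted p = 4.87e-05 by Fisher's exact test). These 327 regions included 5 in the mitochondrial genome. Over the autosomes that comparison was 0.354% against 1.87% (odds ratio 0.187, adjusted p = 0.0209 by Fisher's exact test). Outside annotated genes it was 0.350% against 1.34% (Fisher's exact test, adjusted p = 0.190).

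The 5 regions were at 4 places. Both chr10:67836373-67836503, the third CpG-rich region shown above, and its neighbour chr10:67836515-67836805 lay whole within the 5mC region from 67835945 to 67836877, 76.2 and 75.9 kb from the start of Zfp365. On chromosome 6, chr6:3201418-3201562 lay whole within a 5mC region and chr6:140852896-140853067 shared 117 bp with another. The last, chr1:189623937-189623992, was 56 bp wide and lay within a 5mC region 64.1 kb from the start of Cenpf, a kinetochore gene. None of these 5mC regions carried a symbol either.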

How the data were processed

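5hmC and 5mC enrichment was sequenced as single-end reads of 50 bases from ATDC5 DNA. According to the study's methods, 7 bases were trimmed by the authors with cutadapt, who aligned the reads to GRCm38 with BWA, dropped reads of low mapping quality and called peaks with MACS 1.4.2 (the version is also in the submitters' processing notes). The deposited lists hold a start and an end per region, with samples of a day merged. The sample each list was called against is not given in the sources used here. Starts and ends were read as 1-based with both ends counted, and blank rows (25449 at day 10, 27818 at day 5) were dropped. The regions, gene lists and strings were chosen with earlier results of these data known.

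Windows of 200 bp were taken at midpoints and flanks of 200 bp at 2000 bp from both edges, from the RefSeq sequence of GRCm38, whose lower case marks repeats. A window with 3 or more CpG counted as CpG-rich and one with at least 50% lower case as repeat-rich. Shares were compared by two-sided Fisher's exact tests with Benjamini-Hochberg adjustment over 27 tests, and their 95% Wilson intervals cover counting error only. Limits for a count of 0 are 3 regions of the total. Genes were those of GENCODE release M21 and 43-base strings were counted over all placed chromosomes on both strands. The scripts (Python 3.11.15, scipy 1.17.1) were tested on simulated data. Named regions were the 3 widest, the 3 with most CpG per 100 bp, up to 4 with AP-1 and NF1 strings, those closest to 6 chondrogenic genes, those within 1000 kb of Sox9, the 3 densest stretches of 100000 bp and those at the border of the rule. There were 10 alternative settings. The AP-1 gene list and 1 of the widest regions are not reported here.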

Additional observations from a re-analysis of the deposited data

How the results depend on the processing

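Results were recomputed under 10 other settings. The 5 differences from the flanks past the threshold (AP-1, NF1, RUNX, CpG, repeats) kept their direction and stayed past it in all that applied, with odds ratios from 1.60 to 2.62, 1.85 to 3.69, 1.56 to 2.13, 3.99 to 6.65 and 0.0886 to 0.280. So did AP-1 and CpG against day 5-only regions in windows of a fixed size (0.282 to 0.355 and 0.318 to 0.593). The region itself is left aside there, since day 5-only regions are wider and give more sequence to search. Of 27 results 12 passed the threshold.

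Odds ratios that lost the threshold, all against regions kept from day 5 unless stated, were AP-1 with 400 bp windows (0.692), CpG under 50% repeat-marked (0.698), outside annotated genes (0.775), at least the median width (0.787) and with 1 region per 10000 bp (0.736), 5mC outside annotated genes (0.259), repeats with 1 region per 10000 bp (0.601), and repeats against day 5-only regions over autosomes (1.68), with a gap of 1000 bp counted as overlap (1.75) and outside annotated genes (1.77). Repeats against day 5-only regions reversed at least at the median width (0.557). With the region itself, CpG against regions with a symbol (0.833) and SOX against day 5-only (0.149) passed it. There NF1 (0.291) and RUNX (0.243) against day 5-only regions reversed. Those regions are wider, and the part of width in these reversals was not tested.

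The other reversals never passed the threshold. With the region itself they were SOX against regions with a symbol (0.917) and RUNX (0.978) and SOX (0.935) against kept regions. SOX against flanks was 1.01 over autosomes and with the 1000 bp gap, where RUNX against regions with a symbol was 1.00. At the median width NF1 (1.19), SOX (0.790) and repeats (0.997) against regions with a symbol reversed. With 1 region per 10000 bp, 5mC against regions with a symbol (0.866) and RUNX against kept regions (0.955) did, as did 5mC within 1000 bp against regions with a symbol (0.946). At least the median width left 642 regions.

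No paired analysis was possible because each day has 1 list of merged samples. For the same reason no sample was left out, and with no scores no stricter fold was applied. Depth is unknown.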
